A study of Mus musculus with 9 samples.

Results

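The TGF-beta genes described here are the 3 ligand genes Tgfb1, Tgfb2 and Tgfb3, the 3 receptor genes Tgfbr1, Tgfbr2 and Tgfbr3, and the 3 SMAD genes Smad3, Smad6 and Smad7. They were chosen by gene symbol and make up 9 of the 18194 genes that a probe set of the array names alone. They have 21 such probe sets, of which 12, at least 1 for each gene, passed a filter of a signal over 500 on some array. Dimers of a TGF-beta ligand, once freed from their latent complex, bring together the type II receptor TGFBR2 and the type I receptor TGFBR1, and the co-receptor TGFBR3, also called betaglycan, presents ligand to them, TGF-beta 2 above all. The activated type I receptor phosphorylates SMAD2 and SMAD3, which enter the nucleus with SMAD4, and among the genes then switched on are Smad6 and Smad7, whose products shut the receptor and SMADs down again. In ovarian surface epithelium and in most other epithelia the pathway restrains growth and drives matrix production and a mesenchymal change of shape.

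Mouse ovarian surface epithelial (MOSE) cells of 1 C57BL6-derived culture series, which became transformed without added oncogenes during long passage, were compared at 3 stages to learn which genes change as the cells progress. Early cells (MOSE-E, passages 13, 14 and 15) were labelled non-malignant, intermediate cells (MOSE-I, passages 63, 71 and 73) stood for a neoplastic stage before invasion, and late cells (MOSE-L, passages 136, 142 and 143) for a malignant and invasive stage. Every culture grew in the same high-glucose medium with fetal bovine serum, insulin, transferrin and selenite, no added TGF-beta or receptor inhibitor is named, and each stage has 3 arrays. Because the stages are passages of a single cell series, stage, passage number and time in culture cannot be told apart, and p-values measure the spread between cultures of that series only.

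The cells carried the markers of their label in part. All 11 ovarian surface epithelial markers examined exceeded a signal of 500 on at least 1 array, but Cdh1, which encodes E-cadherin, had signals of 486 to 949 in MOSE-E and at most 93.3 in MOSE-I and MOSE-L. By the rule given below, 6 of the 11 were called lower in MOSE-L than in MOSE-E, where 7.43% of all genes were, and 0 higher. In MOSE-I against MOSE-E 6 were also called lower (3.51% of all genes) and 0 higher, with Msln and Muc16 in place of Krt8 and Krt19. In MOSE-L against MOSE-I 2 were called higher, Msln and Wt1 (7.33% of all genes), and 1 lower, Krt8 (5.95%). Some of these calls, that of Wt1 among them, were lost in fits without 1 array. In MOSE-L against MOSE-E, Wt1 went the other way without a call, at 2981 to 5471 in MOSE-L against 1682 to 2484 in MOSE-E. So did Upk3b, at 16607 to 28467 against 13074 to 16369. Fibroblast markers above 500 were 5 of 7, and their summed signal, mostly that of Vim, Col3a1 and Dcn, was 61934 to 102415 in MOSE-E, then 59296 to 83881 in MOSE-I and 66329.7 to 82888 in MOSE-L. Those above 500 on no array were Lum and Thy1. Within the sum the mean of Dcn was 4978 in MOSE-E and 22527.5 in MOSE-L, while Col3a1 went from 35453 to 16158 and Vim from 46147 to 33285. Macrophage and leukocyte markers above 500 were 2 of 7, Cd14 and Csf1r, and endothelial markers 0 of 5. The pan-leukocyte gene Ptprc stayed at or below 51.9, and the endothelial gene Pecam1 at or below 88.4. The summed macrophage and leukocyte signal was 989 to 1238 in MOSE-E, then 1403 to 2359 in MOSE-I and 1291 to 1812 in MOSE-L. Cd14 read 454 to 586, 746 to 1264 and 484 to 1130 in these stages, and Csf1r 185 to 250, 228 to 595 and 151 to 239, without a call. Ptprc was highest in MOSE-E. Like Tgfbr3 below, this sum was higher on all later arrays than on the early ones, and its part there was not tested. Of 5 granulosa and theca markers only Star passed 500, and the summed signal of these 5 was 427 to 543 in MOSE-E, then 461 to 650.3 in MOSE-I and 940.0 to 1990.2 in MOSE-L, so it moved with the late-stage receptor results given next, and its part in them was not tested. Within a stage, 1 array always stood further from the other pair: MOSE-E 1 (Pearson's r 0.951 and 0.955, against 0.986 between the other arrays), MOSE-I 1 (0.939 and 0.947, against 0.985) and MOSE-L 3 (0.889 and 0.907, against 0.934). MOSE-L 3 also had the highest ratio of 3' to 5' signal for Actb, 1.83 against 1.12 to 1.45 on the other 8 arrays, and the number of arrays limits the precision of everything that follows.

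Among the 9 genes, calls were made for receptor genes alone. A gene was called when the Benjamini-Hochberg adjusted p of limma over all 13845 tested probe sets was at most 0.05 and the change was at least 1 on the log2 scale, which is 2-fold. In MOSE-L against MOSE-E, 1 of the 9 genes, Tgfbr3, was called higher, where 8.11% of all 7952 tested genes were, and 0 were called lower, where 7.43% were. In MOSE-I against MOSE-E the same gene, Tgfbr3, was the 1 called higher (2.28% of all genes) and 0 were called lower (3.51%). In MOSE-L against MOSE-I, Tgfbr1 and Tgfbr2 were the 2 called higher (7.33% of all genes), and 0 were called lower (5.95%). Counts of 1 or 2 among 9 genes do not set these genes apart from all genes tested. No ligand and no SMAD gene met the call in any of the 3 comparisons. The 3 comparisons share arrays, and in RNA from whole cultures fewer cells with a transcript and less of it per cell cannot be told apart.

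**Figure D1:**
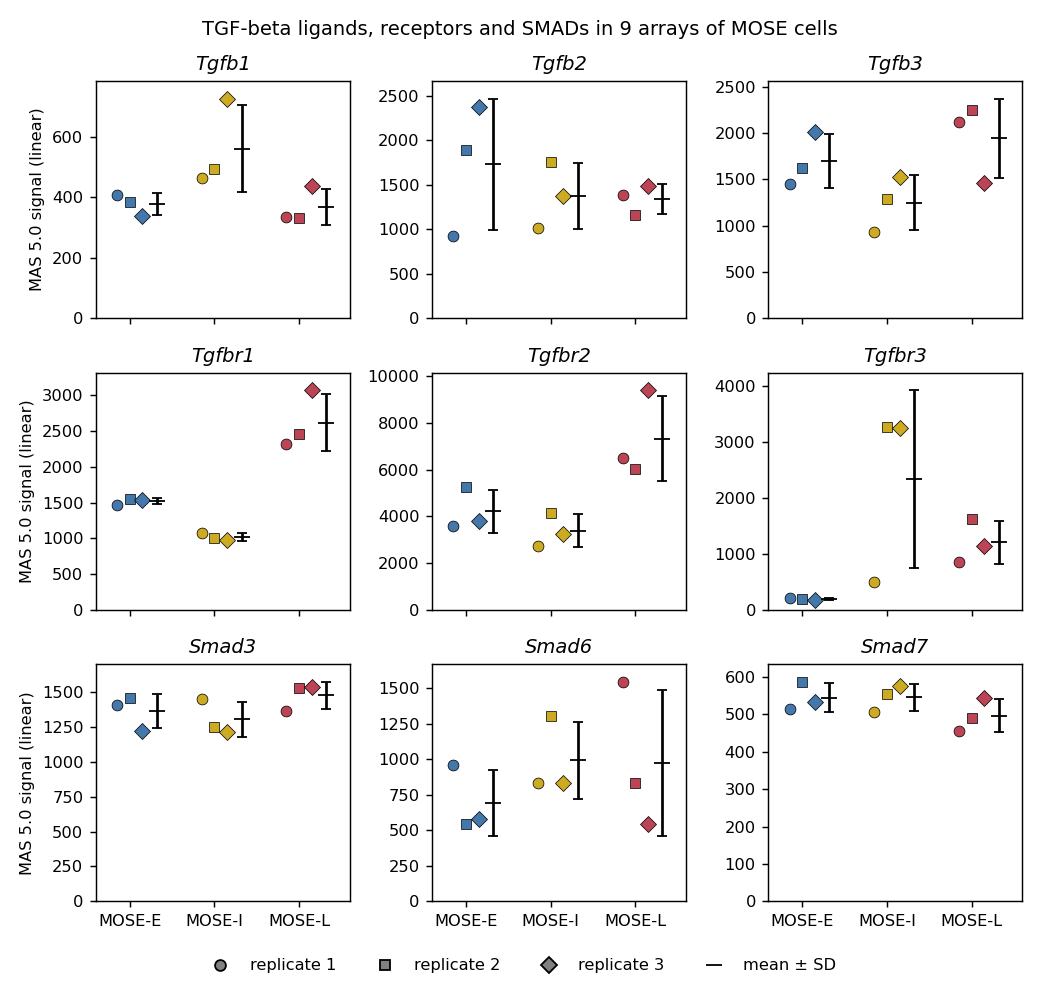
Deposited MAS 5.0 signal (linear axis from 0) of the chosen probe set of each of the 9 genes on each of 9 arrays, with the mean ± SD of the 3 arrays of each stage beside the points. Tgfbr1 and Tgfbr2 are lowest in MOSE-I and highest in MOSE-L, Tgfbr3 is near 200 in all MOSE-E arrays and higher in the other 6, and Smad3 and Smad7 are level. Axes differ between panels, and signals of different probe sets are not comparable.

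Tgfbr3, the betaglycan gene, showed the greatest change of the 9. On probe set 1433795_at its signal was 207, 200.1 and 183 on the 3 MOSE-E arrays, 501, 3267 and 3245 on the MOSE-I arrays, and 863, 1625 and 1149 on the MOSE-L arrays. All 6 later arrays lay above all 3 early ones, and MOSE-I 1 lay far below the other MOSE-I arrays. Some fibroblast markers had a like course within MOSE-I: Pdgfrb read 404, 674 and 1011 there against 117 to 209 in MOSE-E (change 1.74, adjusted p = 0.0177), and Pdgfra read 175, 1039.6 and 1556 against 128 to 185 (1.79, adjusted p = 0.105). The Pdgfrb call was lost without MOSE-E 2 (adjusted p = 0.0653), MOSE-E 3 (0.0820), MOSE-I 2 (0.0683) or MOSE-I 3 (0.112). Dcn read 3588, 18678 and 14449 on the MOSE-I arrays. Other fibroblast markers had no such course: Vim read 47675, 44702 and 43088 there, Lum 96.8, 31.9 and 68.8, and Thy1 122, 132 and 13.9. Col3a1 was also lowest on MOSE-I 1 within that stage, but its means were 12145 in MOSE-I and 35453 in MOSE-E. In MOSE-L, Pdgfrb was back at 92.5 to 148, while Pdgfra read 261 to 1221 and Dcn 19342 to 27205. The part of these markers in the Tgfbr3 result was not tested. The means of Tgfbr3 were 197 ± 12.4 (SD, n = 3) in MOSE-E, then 2338 ± 1591 (SD, n = 3) in MOSE-I and 1212 ± 385 (SD, n = 3) in MOSE-L. The ratio of means was 11.9 for MOSE-I over MOSE-E, with a log2 change of 2.88 (95% interval 1.63 to 4.14, adjusted p = 0.0151), and 6.17 for MOSE-L over MOSE-E, with a log2 change of 2.31 (1.06 to 3.57, adjusted p = 0.0146). MOSE-I and MOSE-L overlapped, and their difference of -0.57 had an interval of -1.83 to 0.68 (adjusted p = 0.463). The MOSE-I call was lost without MOSE-E 2 (adjusted p = 0.0749), MOSE-E 3 (0.0768), MOSE-I 2 (0.0559) or MOSE-I 3 (0.0781), with log2 changes of 2.45 to 2.90, and without MOSE-I 1 it was 3.75 (adjusted p = 0.000283). The MOSE-L call was lost without MOSE-E 3 alone (log2 change 2.27, adjusted p = 0.0531). Without MOSE-I 1, Tgfbr3 was lower in MOSE-L than in MOSE-I by a called -1.43 (adjusted p = 0.00678), so this difference depended on that array.

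A dimmer Tgfbr3 probe set, below the filter, had its stage means in the same order. 1425620_at read 57.3, 54.7 and 78.7 in MOSE-E, then 67.2, 313 and 252 in MOSE-I, and 130.2, 162 and 112 in MOSE-L, again with MOSE-I 1 low. With no filter its changes of 1.05 for MOSE-I and 0.70 for MOSE-L against MOSE-E did not pass (adjusted p = 0.164 and 0.330). The 3 genes whose profile over the 9 arrays was most like that of Tgfbr3 were Plxnd1, a semaphorin receptor gene (Pearson's r = 0.974), Zcrb1, which encodes an RNA-binding protein (r = 0.972), and Lbp, the lipopolysaccharide-binding protein gene (r = 0.965). Each of the 3 shared the low MOSE-E arrays and a MOSE-I 1 value below those of MOSE-I 2 and MOSE-I 3. Lbp, for example, read 66.1 to 165 in MOSE-E, then 219.8, 980.2 and 1236 in MOSE-I, and 596 to 877 in MOSE-L. These likenesses describe 9 arrays that share a cell series and a normalization.

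Tgfbr1 and Tgfbr2, the genes of the signalling receptor pair, both rose from MOSE-I to MOSE-L, and MOSE-L 3, the array with the high Actb ratio, was the highest for each. The rise of Tgfbr1 remained without that array and that of Tgfbr2 fell below the minimum change. The Tgfbr1 probe set 1420895_at read 1469, 1556 and 1528.5 in MOSE-E, then 1078, 1009 and 974 in MOSE-I, and 2319.8, 2458 and 3070.0 in MOSE-L. The 3 stages did not overlap, and their order was MOSE-I, MOSE-E, MOSE-L, with means of 1020.3 ± 53.3, 1518 ± 44.2 and 2616 ± 399 (SD, n = 3 each). MOSE-L exceeded MOSE-I 2.56-fold, a log2 change of 1.31 (95% interval 0.94 to 1.68, adjusted p = 0.000803), and the call stood in each fit that left out 1 array (1.19 to 1.39). Against MOSE-E, MOSE-L was 1.72-fold higher, a log2 change of 0.76 (0.39 to 1.13, adjusted p = 0.00906) that passed the test but not the minimum change. The lower value of MOSE-I than of MOSE-E, -0.55 (-0.92 to -0.18), had an adjusted p of 0.0604, and it was under 0.05 without MOSE-L 1 (0.0442) or MOSE-L 3 (0.0272) and with the closest pair of arrays per stage (0.0208).

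Tgfbr2 was measured by probe set 1426397_at at 3588, 5267 and 3793 in MOSE-E, then 2736, 4137 and 3253 in MOSE-I, and 6512, 6043 and 9400.2 in MOSE-L. The MOSE-E and MOSE-I arrays overlapped, and all 3 MOSE-L arrays lay above both, with means of 4216 ± 916, 3375 ± 708 and 7319 ± 1818 (SD, n = 3 each). MOSE-L was 2.17-fold above MOSE-I, a log2 change of 1.10 (0.57 to 1.63, adjusted p = 0.0110). This call sat close to the minimum change, and without MOSE-I 1 (0.96), without MOSE-L 3 (0.90) or with each array centred on its median (0.92) it fell below it. Against MOSE-E the change was 0.78 (0.25 to 1.31, adjusted p = 0.0355), and this p rose above 0.05 without MOSE-E 1 (0.102), MOSE-E 3 (0.124), MOSE-I 3 (0.0563) or MOSE-L 3 (0.0912), with median centring (0.0553) and with the closest pair of arrays per stage (0.114). From MOSE-E to MOSE-I Tgfbr2 changed by -0.32 (-0.85 to 0.21, adjusted p = 0.404).

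With only the closest pair of arrays of each stage, which leaves out MOSE-E 1, MOSE-I 1 and MOSE-L 3, the numbers of called genes were still 1, 1 and 2, but the pair that differed between MOSE-L and MOSE-I was then Tgfbr1, higher by 1.23 (adjusted p = 0.00240), and Tgfbr3, lower at -1.42 (adjusted p = 0.0136), while Tgfbr2 changed by 0.77 (adjusted p = 0.0406). By the adjusted p alone, without the minimum change, all 3 receptors and no other member differed between MOSE-L and MOSE-E (27.3% of all genes did), Tgfbr3 alone between MOSE-I and MOSE-E (10.0%), and Tgfbr1 and Tgfbr2 between MOSE-L and MOSE-I (27.2%). By the plainest reading, arrays that do not overlap, the 3 receptors separated MOSE-L from MOSE-E (44.8% of all genes did), Tgfb1, Tgfbr1 and Tgfbr3 separated MOSE-I from MOSE-E (41.2%), and Tgfb1, Tgfbr1 and Tgfbr2 separated MOSE-L from MOSE-I (44.2%). With 3 arrays against 3, an exact permutation test cannot give a two-sided p below 0.1.

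**Figure D2:**
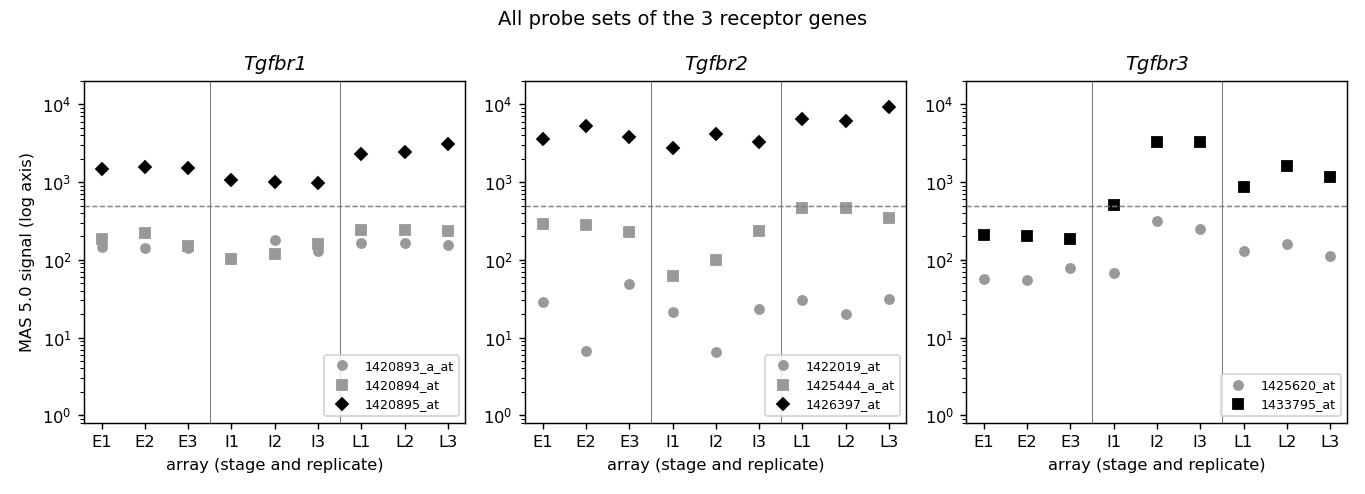
Every probe set of the 3 receptor genes (MAS 5.0 signal, log axis) on the 9 arrays, ordered by stage and replicate, with the filter of 500 dashed and the probe set used for each gene in black. The dim probe sets 1420894_at of Tgfbr1, 1425444_a_at of Tgfbr2 and 1425620_at of Tgfbr3 have their stage means in the same order as the bright ones, and 1422019_at of Tgfbr2 stays below 50.

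Other receptor probe sets were below the filter of 500 and gave the same order where they carried signal. For Tgfbr2, 1425444_a_at read 292, 279.5 and 229 in MOSE-E, then 62.2, 100.1 and 238 in MOSE-I, and 465, 471 and 349 in MOSE-L, and with no filter its MOSE-L to MOSE-I change was 1.49 (adjusted p = 0.0136). For Tgfbr1, 1420894_at had means of 186 ± 36.3, 128 ± 30.3 and 241 ± 6.61 (SD, n = 3 each) in MOSE-E, MOSE-I and MOSE-L, and its MOSE-L to MOSE-I change of 0.73 did not pass without the filter (adjusted p = 0.0777). The remaining Tgfbr1 probe set, 1420893_a_at, lay at 102 to 182 on all arrays, and the remaining Tgfbr2 probe set, 1422019_at, at 6.47 to 49.3.

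SMAD proteins bind DNA at the palindrome GTCTAGAC or, more weakly, at the shorter motif CAGAC, called the core here, often beside the AP-1 site TGANTCA. Promoter windows of RefSeq (build GRCm38.p6, 250 bases before to 50 after the start, read along the gene) were searched for 6 of the 9 genes, with 2 windows for Tgfbr1. No window of Tgfb3, Tgfbr3 or Smad7 was searched. Of the windows searched 3 are shown: those of the receptor pair that rose from MOSE-I to MOSE-L, and that of Smad6, whose window holds the palindrome. All 3 motifs were searched on both strands, the palindrome contains neither the core nor its reverse complement GTCTG, and capitals mark the matches.
Tgfbr1, chr4:47352972-47353271, plus strand: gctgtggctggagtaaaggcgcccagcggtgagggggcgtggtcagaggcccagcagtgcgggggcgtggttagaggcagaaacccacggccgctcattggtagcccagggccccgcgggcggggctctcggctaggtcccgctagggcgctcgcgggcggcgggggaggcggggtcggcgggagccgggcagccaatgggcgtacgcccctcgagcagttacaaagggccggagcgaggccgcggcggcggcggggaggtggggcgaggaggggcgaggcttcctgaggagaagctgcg
Tgfbr2, chr9:116175314-116175613, minus strand: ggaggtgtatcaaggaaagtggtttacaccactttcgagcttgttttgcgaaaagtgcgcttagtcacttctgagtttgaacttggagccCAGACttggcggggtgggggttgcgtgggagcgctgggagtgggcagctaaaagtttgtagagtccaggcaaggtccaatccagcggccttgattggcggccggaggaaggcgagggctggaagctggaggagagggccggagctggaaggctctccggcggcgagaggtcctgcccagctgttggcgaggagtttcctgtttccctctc
Smad6, chr9:64022010-64022309, minus strand: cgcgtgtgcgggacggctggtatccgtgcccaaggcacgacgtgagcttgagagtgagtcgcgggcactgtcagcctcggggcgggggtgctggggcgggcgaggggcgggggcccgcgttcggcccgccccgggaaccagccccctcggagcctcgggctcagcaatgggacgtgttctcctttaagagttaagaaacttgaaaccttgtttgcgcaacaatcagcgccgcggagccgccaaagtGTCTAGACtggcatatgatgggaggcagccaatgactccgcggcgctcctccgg
The palindrome in the Smad6 window begins 4 bases before the start, and it occurs in 0.213% of the 32817 windows of the table. Tgfbr2 has 1 core, which 49.6% of windows have, the Tgfbr1 window shown has none of the 3 motifs, and the second Tgfbr1 window (chr4:47385966-47386265) has 1 core. The Tgfb2 window has 2 cores, and those of Tgfb1 and Smad3 have none of the 3 motifs. An AP-1 site, present in 7.81% of windows, was found in none of the windows of the 6 genes. A match is a run of letters and not a site shown to be bound.

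The ligand genes did not meet the call at any step. Tgfb1, the most widely expressed ligand gene, read 408, 385 and 338 in MOSE-E, then 465, 493 and 727 in MOSE-I, and 336, 332 and 437 in MOSE-L on probe set 1420653_at. All MOSE-I arrays were above all others, while MOSE-E and MOSE-L overlapped. The changes were 0.50 for MOSE-I against MOSE-E (95% interval 0.0092 to 0.98, adjusted p = 0.160), -0.53 for MOSE-L against MOSE-I (-1.02 to -0.045, adjusted p = 0.0913) and -0.036 for MOSE-L against MOSE-E (-0.52 to 0.45, adjusted p = 0.923). The other Tgfb1 probe set, 1445360_at, was dim, at 32.2 to 187. A 2-fold change of Tgfb1 on the brighter one between the early and late stage lies outside the last interval.

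Tgfb2, the ligand that depends most on betaglycan, varied more within MOSE-E than between the stages. Probe set 1423250_a_at read 921, 1892 and 2373 in MOSE-E, then 1009.6, 1752 and 1371 in MOSE-I, and 1380.2, 1156 and 1487 in MOSE-L, and the stages overlapped throughout. Its changes were -0.26 for MOSE-L against MOSE-E (-0.96 to 0.44, adjusted p = 0.570), -0.25 for MOSE-I against MOSE-E (-0.95 to 0.45, adjusted p = 0.631) and -0.011 for MOSE-L against MOSE-I (-0.71 to 0.69, adjusted p = 0.982). A pair of other Tgfb2 probe sets past the filter gave lower values after the early stage, with MOSE-I to MOSE-E changes of -0.74 for 1450922_a_at (adjusted p = 0.0712) and -0.77 for 1450923_at (adjusted p = 0.122), and MOSE-L to MOSE-E changes of -0.47 (adjusted p = 0.165) and -0.79 (adjusted p = 0.0780). The remaining Tgfb2 probe set, 1438303_at, was below the filter at 90.0 to 307. In the 3 that passed it MOSE-E 1 was the lowest MOSE-E array.

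Tgfb3 read 1448, 1619.5 and 2013 in MOSE-E, then 934, 1292 and 1519.6 in MOSE-I, and 2123, 2251 and 1456 in MOSE-L on probe set 1417455_at. All stages overlapped. MOSE-L exceeded MOSE-I by 0.62 (95% interval 0.098 to 1.14, adjusted p = 0.0716), MOSE-I lay below MOSE-E by -0.44 (-0.96 to 0.084, adjusted p = 0.237), and MOSE-L and MOSE-E differed by 0.18 (-0.34 to 0.70, adjusted p = 0.598). The order of its means, MOSE-I, MOSE-E, MOSE-L, was that of Tgfbr1 and Tgfbr2, but no step passed the test.

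**Figure D3:**
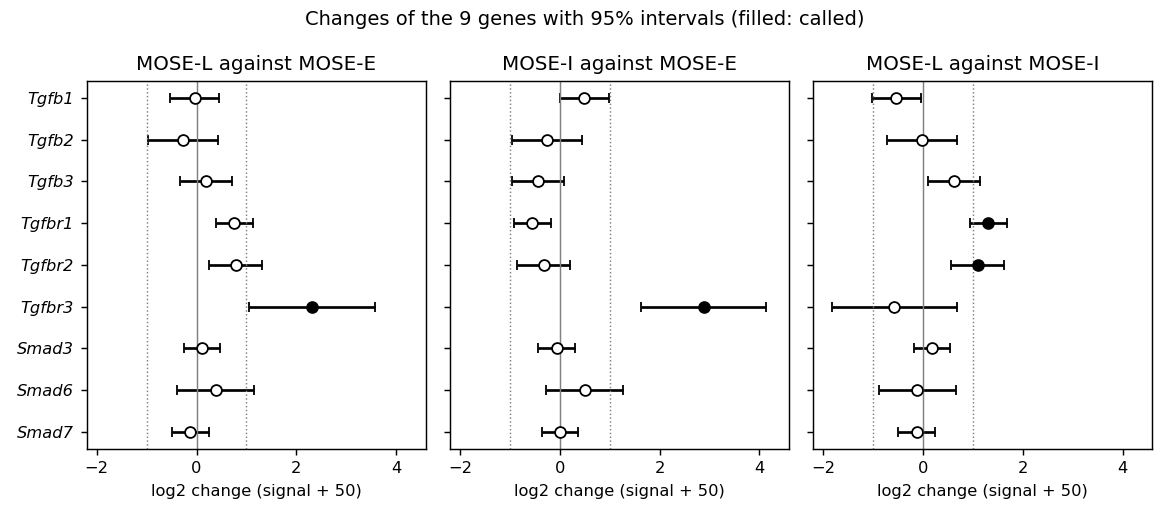
Change of each of the 9 genes in the 3 comparisons (log2 of signal + 50) with its 95% interval from limma. Filled points were called, and dotted lines mark a change of 1 in either direction. The called genes are Tgfbr3 in the first and the middle panel and Tgfbr1 and Tgfbr2 in the last, and the intervals of Smad3 and Smad7 lie within 0.54 of 0 in all 3 panels.

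Smad3, the receptor-regulated SMAD among the members, was level. Its probe set 1454960_at read 1407, 1460.1 and 1223 in MOSE-E, then 1447, 1248 and 1216 in MOSE-I, and 1366, 1530.2 and 1535 in MOSE-L, and all stages overlapped. The changes were 0.11 for MOSE-L against MOSE-E (95% interval -0.25 to 0.48, adjusted p = 0.639), -0.062 for MOSE-I against MOSE-E (-0.43 to 0.30, adjusted p = 0.834) and 0.18 for MOSE-L against MOSE-I (-0.19 to 0.54, adjusted p = 0.436), so a 2-fold change lies outside each interval. A pair of dimmer Smad3 probe sets stayed between 65.6 and 364.

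The inhibitory SMAD genes, which TGF-beta and BMP signals induce, did not follow the receptors. Smad7 read 514, 587 and 532 in MOSE-E, then 506, 555 and 576 in MOSE-I, and 456, 490.3 and 543 in MOSE-L on probe set 1423389_at. The 3 stages overlapped, and the changes were -0.12 for MOSE-L against MOSE-E (95% interval -0.49 to 0.24, adjusted p = 0.615), 0.0034 for MOSE-I against MOSE-E (-0.36 to 0.37, adjusted p = 0.992) and -0.13 for MOSE-L against MOSE-I (-0.49 to 0.24, adjusted p = 0.587). The second Smad7 probe set, 1443771_x_at, a design that can also bind related transcripts, read 546, 629 and 482 in MOSE-E, 269.9, 419.6 and 306 in MOSE-I, and 407, 395 and 456 in MOSE-L. Here all later arrays lay below all early ones, and the changes of -0.67 in MOSE-I (adjusted p = 0.0664) and -0.36 in MOSE-L (adjusted p = 0.231) did not pass the test, so the Smad7 probe sets disagreed on the early step.

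Smad6, the inhibitory SMAD that acts mainly on BMP receptors and whose promoter window holds the palindrome, varied widely within each stage. Probe set 1422771_at read 963, 545 and 579 in MOSE-E, then 836, 1308 and 837 in MOSE-I, and 1547, 832 and 548 in MOSE-L. The MOSE-L arrays spanned nearly the whole range of the other stages, with a mean of 976 ± 515 (SD, n = 3). Its changes were 0.38 for MOSE-L against MOSE-E (95% interval -0.39 to 1.15, adjusted p = 0.441), 0.50 for MOSE-I against MOSE-E (-0.27 to 1.27, adjusted p = 0.362) and -0.11 for MOSE-L against MOSE-I (-0.88 to 0.66, adjusted p = 0.825). A 2-fold rise of Smad6 after the early stage is inside these intervals and was not detectable with 3 arrays a stage.

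Other genes of the pathway were counted in lists by role, against the 8.11% of all genes called higher and 7.43% called lower in MOSE-L against MOSE-E, so 1 call in a list of this size says nothing about the list. Of 4 tested further SMAD genes (5 listed) 0 were called in any comparison, and the common partner Smad4 changed by 0.021 between MOSE-L and MOSE-E (adjusted p = 0.938). The same held for 8 nuclear repressors, of which Ctbp1, a co-repressor gene, changed by -0.086 (adjusted p = 0.744). In this list 2 genes, named after their values were seen, passed the adjusted p without the minimum change in MOSE-L against MOSE-E: Ctbp2, another co-repressor gene, at -0.84 (adjusted p = 0.0115) and Ski, a repressor of SMAD complexes, also at -0.84 (adjusted p = 0.0139). Among 7 accessory receptors tested (12 listed), 1 rose in MOSE-L against MOSE-E: Acvr1b, the activin type I receptor gene, at 279 ± 17.9 in MOSE-E and 701 ± 104 in MOSE-L (SD, n = 3 each), by 1.19 (adjusted p = 0.00495). In MOSE-L against MOSE-I the 1 called higher (7.33% of all genes were) was Bmpr2, the BMP type II receptor gene, at 1.06 (adjusted p = 0.0164), a call lost by the minimum change without MOSE-L 3 (0.85) and with the closest pair of arrays per stage (0.80). Non-overlapping arrays put 4 of the 7 higher in MOSE-L than in MOSE-I and 5 of the 7 lower in MOSE-I than in MOSE-E. In either direction, 44.2% and 41.2% of all genes did not overlap in these comparisons, so the counts are no result about the list. Bmpr2, Acvr1 and Acvr2a, named after their values were seen, met both, with changes from MOSE-E to MOSE-I of -0.83, -0.77 and -0.36 (adjusted p = 0.0653, 0.0974 and 0.40). Tgfbr1 met both as well. Of 13 tested genes for receptor and SMAD turnover (15 listed), 1 fell, Pmepa1, itself induced by TGF-beta and a brake on receptor access to SMADs. Pmepa1 read 3512, 3746 and 5019.7 in MOSE-E, then 2168, 2389 and 1943 in MOSE-I, and 966, 1286 and 1316 in MOSE-L. Its stages did not overlap and followed passage order, with a MOSE-L to MOSE-E change of -1.74 (95% interval -2.18 to -1.29, adjusted p = 0.000245).

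Latency and activation genes moved in both directions. Of 10 tested (16 listed), 2 rose and 1 fell in MOSE-L against MOSE-E, with a median change of -0.23 against 0.031 over all genes, and 2 rose (Itgb8 and Fmod) and 2 fell (Thbs1 and Itgav) in MOSE-I against MOSE-E, the calls of Itgb8, Thbs1 and Itgav being lost in some fits without 1 array. Of all genes, 8.11% rose and 7.43% fell in MOSE-L against MOSE-E, and 2.28% and 3.51% in MOSE-I against MOSE-E. Itgb8, whose integrin frees latent TGF-beta, read 399 to 794 in MOSE-E, then 1238 to 1491 in MOSE-I and 1552 to 3543 in MOSE-L, a MOSE-L to MOSE-E change of 2.19 (adjusted p = 0.000959). Dcn, the gene of the proteoglycan decorin, which binds TGF-beta, rose by 2.19 as well (adjusted p = 0.0108), and Thbs1, whose product thrombospondin 1 is another activator of latent TGF-beta, fell by 2.47 (adjusted p = 0.00743). Fmod, the fibromodulin gene, was high at the intermediate stage, at 194 ± 95.9 in MOSE-E, then 1455 ± 578 in MOSE-I and 49.5 ± 38.6 in MOSE-L (SD, n = 3 each), and its MOSE-I to MOSE-E change of 2.63 (adjusted p = 0.00886) was lost without MOSE-I 3 (adjusted p = 0.0665).

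Among genes that TGF-beta is known to induce, more were called lower than higher after the early stage. Of 34 tested (45 listed), 17 fell and 3 rose in MOSE-L against MOSE-E, with a median change of -1.03 against 0.031 over all genes. In MOSE-I against MOSE-E 7 fell and 1 rose (median -0.84 against 0.034), and in MOSE-L against MOSE-I 5 fell and 2 rose (median 0.077 against -0.018). Of all genes, 7.43% fell and 8.11% rose in MOSE-L against MOSE-E. The shares were 3.51% and 2.28% in MOSE-I against MOSE-E, and 5.95% and 7.33% in MOSE-L against MOSE-I. The greatest fitted falls between MOSE-E and MOSE-L were those of contractile and collagen genes, which serum response factor and other regulators also control: Tagln at -7.72 (adjusted p = 0.000198), Col1a2 at -6.98 (adjusted p = 3.25e-06), Acta2 at -5.70 (adjusted p = 0.000127) and Tgfb1i1, a focal adhesion gene named for its induction by TGF-beta, at -4.81 (adjusted p = 0.000240). The MOSE-L signals of Tagln (6.59, 111 and 28.5) and Tgfb1i1 (142, 14.8 and 21.2) were below or little above the lowest median signal of an array, 93.2, so the sizes of these changes, and their order, depend on the value of 50 added to every signal. In MOSE-I against MOSE-E Tagln changed by -3.65 (adjusted p = 0.0267), a call lost without MOSE-E 2 (adjusted p = 0.127), MOSE-E 3 (0.123) or MOSE-I 3 (0.0869). Ccn2, the connective tissue growth factor gene, was named after its values were seen and had means of 33636 ± 13711 in MOSE-E, then 2922 ± 1943 in MOSE-I and 5338 ± 2271 in MOSE-L (SD, n = 3 each). The 3 that rose in MOSE-L were Snai2, a repressor of E-cadherin (2.38, adjusted p = 0.000703), Angptl4 (1.86, adjusted p = 0.0243) and Ndrg1 (1.48, adjusted p = 0.0494), named for the same reason, and the Angptl4 call was lost without MOSE-E 1 (adjusted p = 0.0704) or MOSE-L 3 (0.0630), while the Ndrg1 call remained in a fit without 1 array only when that array was MOSE-L 2, and its change was 0.86 without MOSE-L 3. MOSE-E 1 was the lowest MOSE-E array for Tagln, Col1a2, Acta2, Tgfb1i1, Ccn2 and Thbs1, and the number that fell in MOSE-L was 11 without MOSE-E 2 or without MOSE-E 3 and 20 without MOSE-E 1. In MOSE-I it was 2 without MOSE-E 2, MOSE-E 3 or MOSE-I 3, 13 without MOSE-E 1 or MOSE-L 3, 11 without MOSE-L 1, and 18 with the closest pair of arrays of each stage. The number of all tested probe sets that fell in MOSE-I, 505, moved the same way, to 114, 85 and 151 without MOSE-E 2, MOSE-E 3 or MOSE-I 3, to 740, 642 and 686 without MOSE-E 1, MOSE-L 3 or MOSE-L 1, and to 1013 with the closest pairs, so these moves in MOSE-I are not particular to the target genes. For MOSE-L the number over all probe sets, 1011, went to 729 and 687 without MOSE-E 2 or MOSE-E 3, and to 989 without MOSE-E 1. The higher target count without MOSE-E 1 in MOSE-L was thus not seen over all probe sets. Without MOSE-L 1 or MOSE-L 2 the target count in MOSE-L was lower, at 12 in each fit, while the number over all probe sets was higher, at 1135 and 1193. Thbs1 and Pmepa1 stand in the target list as well as in their own.

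**Figure D4:**
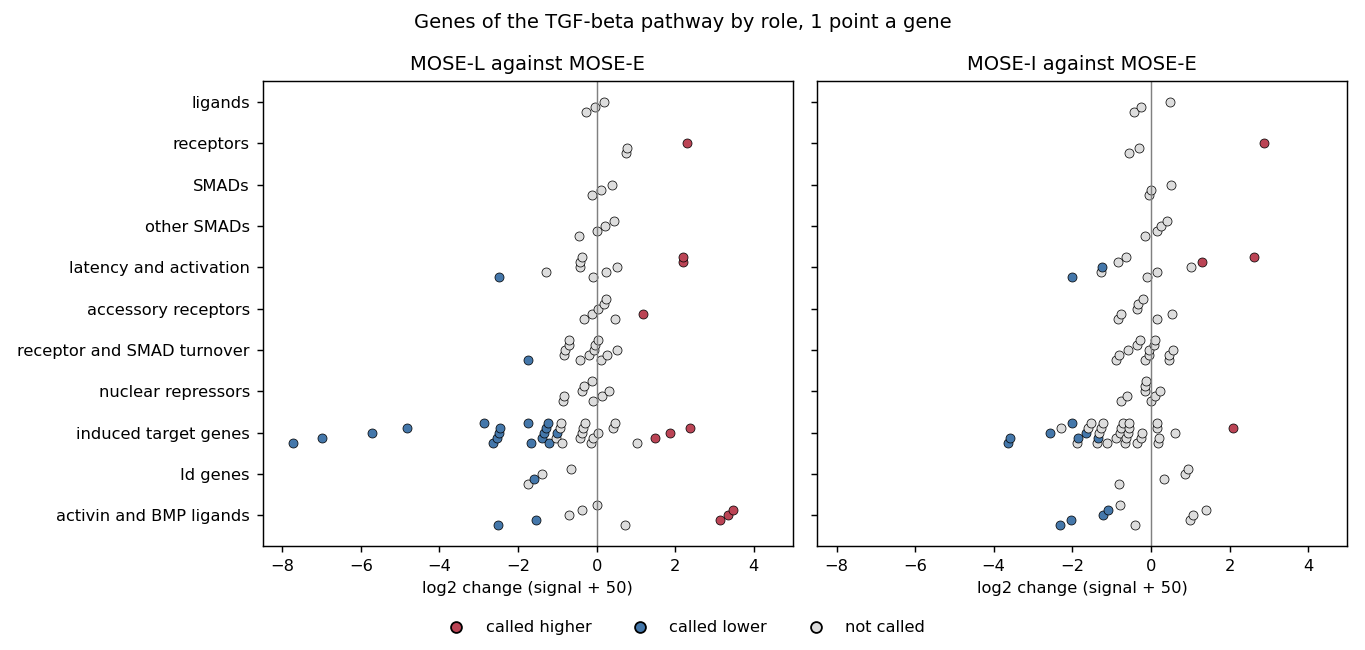
Change of each tested gene of the TGF-beta pathway (log2 of signal + 50), 1 point a gene, by role, for MOSE-L and for MOSE-I against MOSE-E. Called genes are red where higher and blue where lower. The ligand and SMAD rows hold no called gene, the receptor row holds Tgfbr3, and the induced target genes reach below -7 in MOSE-L.

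Activins and BMPs are ligands of the TGF-beta superfamily, and Id genes encode helix-loop-helix proteins that block DNA binding by their partners. Of the 4 Id genes, which BMP signals induce and TGF-beta often represses, 1 fell in MOSE-L against MOSE-E (7.43% of all genes did). In MOSE-L against MOSE-I 3 fell, Id1, Id3 and Id4 (5.95% of all genes did), of which Id3 and Id4 lost the call in some fits without 1 array. The 1 that fell in MOSE-L against MOSE-E was Id2, at -1.61 (adjusted p = 0.0194), a call lost without MOSE-E 1 (adjusted p = 0.0643), MOSE-E 3 (0.0605), MOSE-L 2 (0.0520) or MOSE-L 3 (0.0555). Of 9 tested genes in the list of activin and BMP ligands and antagonists (18 listed), 3 rose (Inhbb, Bmp2 and Grem1) and 2 fell (Inhba and Fstl1) in MOSE-L against MOSE-E. Of all genes 8.11% rose and 7.43% fell there. In MOSE-I against MOSE-E 4 fell (Inhba, Bmp1, Fst and Fstl1) and 0 rose, where 3.51% and 2.28% of all genes did. In MOSE-L against MOSE-I 4 rose (Inhbb, Bmp2, Fst and Grem1) and 0 fell, where 7.33% and 5.95% of all genes did, and the Bmp2 call there was lost in some fits without 1 array. Fst, which fell at the first step, rose by 1.35 at this one (adjusted p = 0.00516). Bmp1 encodes a protease and neither a ligand nor an antagonist. The MOSE-I calls of Bmp1 and Fstl1 were lost in some fits without 1 array. The activin subunit genes went opposite ways: Inhbb was at 114 ± 58.2 in MOSE-E and 1338 ± 228 in MOSE-L (SD, n = 3 each), a change of 3.14 (adjusted p = 0.000201), and Inhba was at 3544 ± 2149 and 507 ± 224, a change of -2.51 (adjusted p = 0.00785). The MOSE-I to MOSE-E change of Inhba, -2.31 (adjusted p = 0.0270), was lost without MOSE-E 2 (adjusted p = 0.137), MOSE-E 3 (0.126), MOSE-I 2 (0.0860) or MOSE-I 3 (0.107). In MOSE-L against MOSE-E, Bmp2 rose by 3.34 (adjusted p = 0.00420) and the BMP antagonist gene Grem1 by 3.48 (adjusted p = 0.000784), from signals of at most 43.0 for Bmp2 and 158 for Grem1 in MOSE-E. Inhbb read at most 164 in MOSE-E, so the fold changes of Bmp2, Grem1 and Inhbb lean on the value of 50 added to every signal.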

How the data were processed

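RNA of 9 cultures, 3 a stage, was measured on Affymetrix whole-genome mouse GeneChips. The authors made the deposited values with MicroArray Suite 5.0: linear signal intensity per probe set, each array scaled to a trimmed mean of 500. MAS 5.0 subtracts mismatch probes, which makes dim signals noisy. No column belonged to another sample (0). Of 45101 probe sets, 34958 named 1 gene symbol, 932 several and 9211 none (34754 updated by gene ID). Controls (64) were left out, and the 13845 probe sets with a highest signal over 500 were tested. The log2 of signal + 50 was fitted with limma 3.58.1 (R 4.3.3, 1 mean per stage over 9 arrays, empirical Bayes with trend, robust, 6 residual degrees of freedom and a median prior of 5.00). A gene took the brightest probe set past the filter that named it alone. The 9 genes, the lists and the rule for named genes (up to 4 called genes with the greatest MOSE-L to MOSE-E change per list, and the greatest MOSE-I to MOSE-E change, or the brightest where none was called) were chosen with earlier results of these data known. Scripts were tested on simulated data.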

Additional observations from a re-analysis of the deposited data

How the results depend on the processing

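Replicate numbers did not pair the arrays (correlation of same-number deviations -0.113 to 0.410, own number best in 7 of 18 cases), and with the replicate block the member counts were again 1, 1 and 2. The alternatives changed normalization, added value, filter, variance model, arrays fitted, test and threshold, and the fit on the closest pair of arrays per stage was chosen after seeing the data. Called member genes in MOSE-L against MOSE-E (1) were 0 at an adjusted p of 0.01, 3 with no minimum change, 0 by the methods' t-test after adjustment, and 0 to 1 without single arrays. In MOSE-I against MOSE-E (1) they were 0 at 0.01, 0 by the methods' t-test with equal variance, adjusted (0) or not, 0 with unequal variance, and 0 to 1 without single arrays. In MOSE-L against MOSE-I (2) they were 1 with median centring, 1 at 0.01, 0 by the adjusted t-test, and 1 to 2 without single arrays. Induced target genes that fell in MOSE-L against MOSE-E (17) were 11 at 0.01, 10 by the methods' t-test, 0 after adjustment, 5 with unequal variance, and 11 to 20 without single arrays. In MOSE-I against MOSE-E (7) they were 12 in a fit of those stages alone, 2 at 0.01, 4 by the t-test, 0 after adjustment, 3 with unequal variance, 18 with the closest pair of arrays, and 2 to 13 without single arrays. The cause of these moves was not tested. Changes near 0 turned sign: Smad3 in MOSE-I against MOSE-E was 0.074 with median centring, which moved the median of all genes by 0.14 there and by -0.18 in MOSE-L against MOSE-I, and Smad6 in MOSE-L against MOSE-I was 0.11 with the closest pair of arrays. Without single arrays, Smad6 in MOSE-L against MOSE-I ranged from -0.49 to 0.22, Smad7 in MOSE-I against MOSE-E from -0.034 to 0.054, Tgfb1 in MOSE-L against MOSE-E from -0.15 to 0.025, and Tgfb2 from -0.64 to 0.022 in MOSE-I against MOSE-E, from -0.65 to 0.011 in MOSE-L against MOSE-E and from -0.21 to 0.17 in MOSE-L against MOSE-I. Among the alternative values of the members, 658 kept direction and side of the threshold, 18 lost and 4 gained a call, and 16 turned sign. No protein, phosphorylated SMAD or response to added ligand was measured, and a dim probe set shows little of its gene's level.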
